A study of Rattus norvegicus with 8 samples.

Results

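Cytosolic ribosomal protein genes were examined in the hypothalamus of young rats of both sexes. They were taken by name from the arrays: every non-control probe named Rpl, Rps or Rplp followed by a number, leaving out the Rps6 kinases and binding proteins. This gave 143 probes for 79 genes, out of 30367 unique probes, and all 143 passed the filter on dim signal. In the model across all tested probes the 79 genes are set beside 12505 named genes, each at its brightest probe. The groups were 4 female rats in estrus and 4 male rats, all Sprague Dawley and aged 3 to 4 months, with no treatment or transgene in either group. Total RNA of 1 female and 1 male was hybridised together on each of 4 two-colour arrays of a single slide, with the female in Cy3 on arrays 1 and 3 and in Cy5 on arrays 2 and 4. The labels do not say how the hypothalamus was bounded.

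The ribosome is the particle that translates messenger RNA into protein. Its small subunit reads the message and its large subunit joins the amino acids, and each subunit is built from ribosomal RNA and one copy of most of these proteins. The P stalk, made of Rplp0, Rplp1 and Rplp2, is the arm of the large subunit that recruits elongation factors. The messenger RNAs of these proteins are abundant in every cell type, and many start with a C followed by a run of C and T, the 5′ terminal oligopyrimidine (TOP) motif through which the kinase mTOR adjusts their translation.

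On array 2 the regional markers stood apart, and array 2 enters each value below that is pooled over the 4 arrays. The 18 measured hypothalamic markers of 19 listed had a median log2 female over male ratio of 2.45 on array 2 and between -0.20 and 0.26 on the other arrays. Their summed dye-corrected level ran from 17.69 to 18.69 (log2) in females and from 15.73 to 18.76 in males, with male 2 the lowest. The 14 measured markers of cortex, hippocampus and striatum, of 18 listed, had a median of -1.62 on array 2 and between -0.11 and 0.07 elsewhere, and their summed level ran from 13.99 to 14.71 in females and from 14.07 to 15.76 in males. The 10 meningeal markers, all measured, had medians of -0.11, 2.10, -0.50 and 0.77 on the 4 arrays. Their summed level ran from 15.31 to 16.81 in females and from 14.07 to 15.98 in males. The 8 measured choroid plexus and ependymal markers of 10 listed had medians of -0.09, 0.22, -0.28 and -0.37 on the 4 arrays. Those markers had a summed level of 12.01 to 13.42 in females and 12.82 to 15.73 in males. Among them Ttr read 1.26, -2.69, -1.31 and -4.42, so it stood furthest apart on array 4. The 9 measured neuronal markers of 10 listed had medians of 0.16, -0.90, 0.00 and -0.40 on the 4 arrays, and their summed level ran from 16.76 to 17.05 in females and from 17.01 to 17.38 in males. The 10 oligodendrocyte markers, all measured, had fitted ratios below 0, with medians of 0.20, -0.55, -0.20 and -0.58 on the arrays and a summed level of 17.31 to 17.48 in females and 17.47 to 17.78 in males. The 4 measured blood markers of 6 listed had medians of 0.03, 1.63, -0.65 and -0.40, with a summed level of 17.28 to 17.96 in females and 16.98 to 17.96 in males. The 7 measured pituitary markers of 8 listed had medians of -0.06, 0.63, -0.24 and 0.27, with a summed level of 15.59 to 16.57 in females and 14.16 to 17.07 in males. For the 10 microglial markers, all measured, the array medians were 0.02, 0.27, -0.31 and -0.09. For the 8 astrocyte markers, all measured, they were -0.30, 0.08, -0.23 and -0.02. For the 10 endothelial markers, all measured, they were 0.21, 0.05, -0.07 and -0.20. No measured gene of these lists was at background in all 8 samples, as the filter requires. Signal of the Y-linked Ube1y1 exceeded background in 4 males and 0 females. Its log2 ratios on the 4 arrays were -0.43, -0.03, -0.67 and -0.53, so array 2 showed almost no difference between the sexes.

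Most ribosomal protein genes had a slightly higher level in females than in males. Of the 79 genes, 75 had a fitted female over male ratio above 0, where 54.9% of all named genes did. The median log2 ratio of the 79 was 0.17, or 1.13-fold, with quartiles of 0.12 and 0.22, beside a median of 0.02 over all named genes. No ribosomal protein gene passed an adjusted p of 0.05 in limma, and no gene of the whole array did (0%). At an unadjusted p under 0.05 limma placed 5 of the 79 genes higher in females, beside 5.05% of all named genes, and 0 of the 79 lower in females, beside 3.74%. Counted by probe, 136 of the 143 lay above 0, beside 56.1% of all tested probes. Of these 143, 12 lay above 0 with an unadjusted p under 0.05, beside 4.98%. In tissue RNA, fewer cells of a type and less RNA per cell cannot be told apart.

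The shift was uneven over the arrays. The median of the 79 genes was 0.13 on array 1, 0.46 on array 2, 0.02 on array 3 and 0.06 on array 4. Over all named genes the medians were 0.02, -0.01, 0.01 and -0.02. Ratios above 0 numbered 61 of 79 on array 1, 69 on array 2, 40 on array 3 and 46 on array 4, so the lean towards females was widest on array 2 and all but absent on array 3. Without array 2 the median fell to 0.07 and 65 of the 79 genes lay above 0, beside 56.7% of all named genes. Without array 4 the median was 0.26 and 76 genes lay above 0, beside 53.3%. The part of these markers in the shift was not tested.

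**Figure D1:**
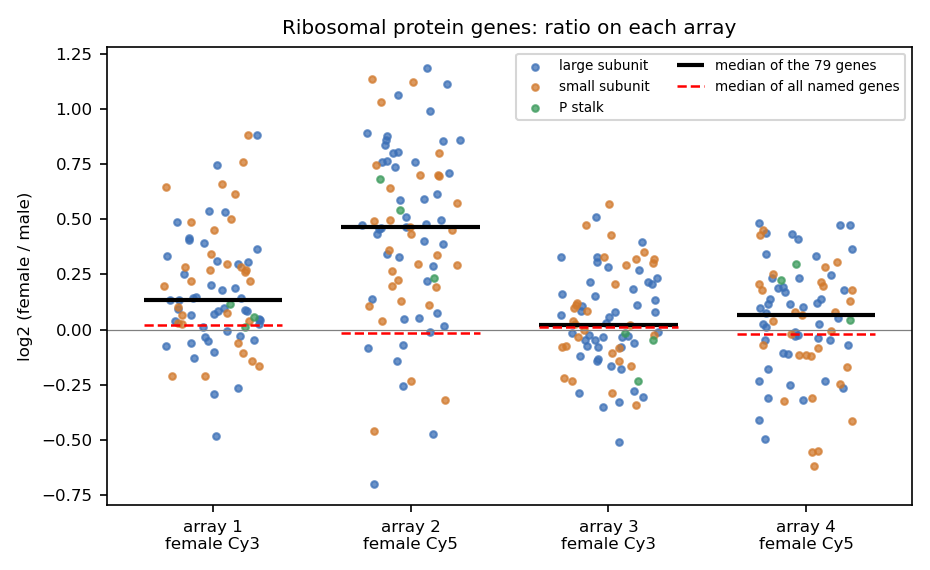
Within-array log2 female over male ratio (vertical axis) of the 79 ribosomal protein genes on each of the 4 arrays, 1 point per gene at its brightest probe, coloured by subunit. Black bars are the medians of the 79 genes (0.13, 0.46, 0.02 and 0.06) and red dashes those of all 12505 named genes. Array 2 has the highest median.

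By sample, after the fitted dye effect was taken out, the median deviation of the 79 genes from their own means was 0.16 in female 1, 0.15 in female 2, 0.06 in female 3 and -0.04 in female 4. In males 1 to 4 it was -0.08, -0.22, -0.04 and -0.01. Male 2 was the lowest sample and females 1 and 2 the highest, and female 4 lay below male 4. Female 4 was also level with male 3, so the sexes overlapped. The corresponding medians of all named genes stayed between -0.02 and 0.02.

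**Figure D2:**
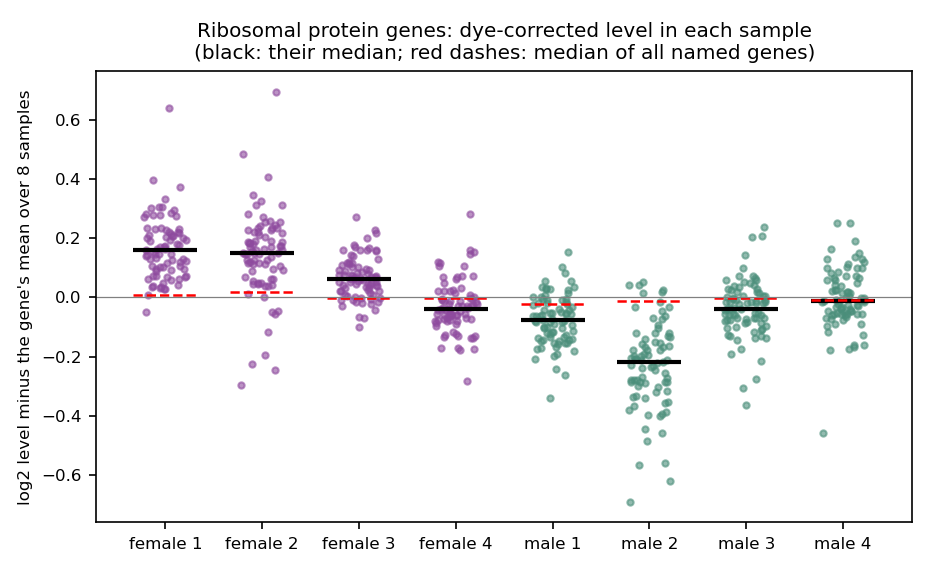
Dye-corrected log2 level of each of the 79 genes minus its mean over the 8 samples (vertical axis), by sample, 1 point per gene. Black bars mark the median of the 79 genes, from -0.22 in male 2 to 0.16 in female 1, and red dashes the median of all named genes.

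Both subunits leaned the same way. The 46 large-subunit genes had a median of 0.16 with 43 above 0, and the 30 small-subunit genes a median of 0.17 with 29 above 0. On array 2 their medians were 0.48 and 0.40, and on array 1 they were 0.10 and 0.24. The spread between genes on 1 array, as an SD, ran from 0.22 on array 3 to 0.40 on array 2.

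**Figure D3:**
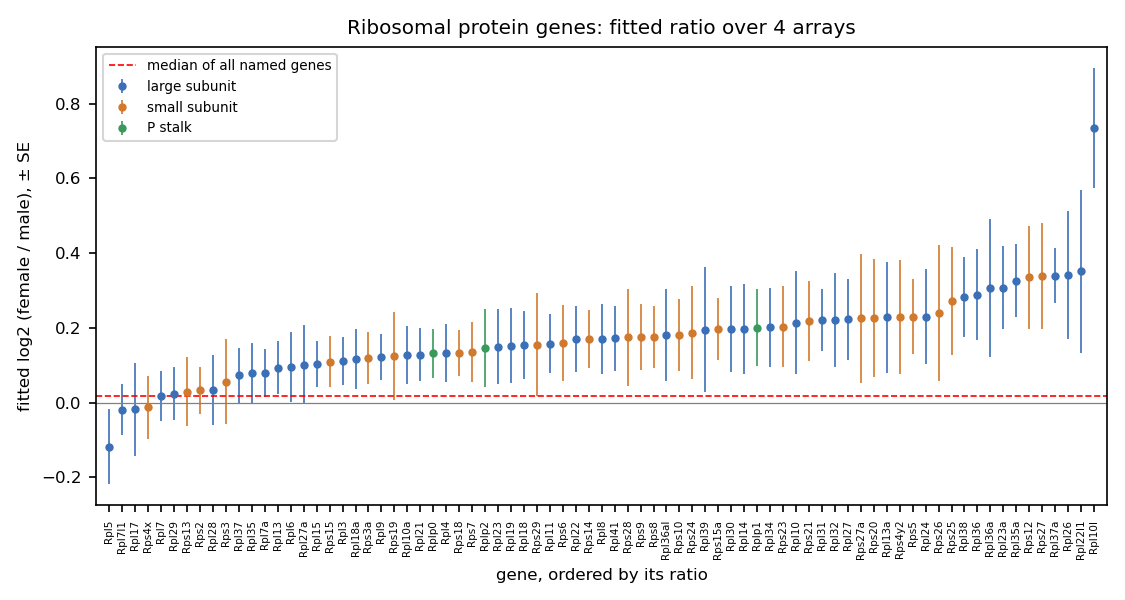
Fitted log2 female over male ratio with its SE over 4 arrays (vertical axis) for 77 of the 79 ribosomal protein genes, ordered by ratio and coloured by subunit. The values run from -0.12 for Rpl5 to 0.74 for Rpl10l, and the red dashes mark the median of all named genes.

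Rpl10l had the highest ratio of the 79. It is the autosomal paralog of the X-linked Rpl10, which acts in the late assembly of the large subunit. In mouse Rpl10l is known for its expression in testis, where it stands in for Rpl10 during male meiosis. Its brightest probe, at chr6:87929885-87929944 (rn4), read log2 levels of 9.42, 9.57, 9.0 and 8.80 in females 1 to 4 and 8.54, 8.38, 8.60 and 8.32 in males 1 to 4. Every female lay above every male, and the ratio was above 0 on all arrays (0.88, 1.19, 0.40 and 0.47). The fitted ratio was 0.74 ± 0.16 (SE, 4 arrays), or 1.66-fold, with a limma adjusted p of 0.55. This probe was the dimmest of those that stand for the 79 genes. Its ratio moved with background handling, to 0.79 with an offset of 16 and 0.92 without background correction. A second probe gave 0.47 ± 0.11, with ratios of 0.89, 0.41, 0.57 and 0.01. Rpl10 itself gave 0.21 ± 0.14, with 0.07, 0.76, -0.02 and 0.05 on the arrays. The Rpl10l second probe and the Rpl10 probe are shown to set the paralogs side by side, and binding of one gene's RNA to the other's probe was not tested. Capitals mark the bases that are identical where the probes overlap when aligned without gaps, 14 of 16 bases:
Rpl10l (rn4 chr6:87930295-87930354, minus strand): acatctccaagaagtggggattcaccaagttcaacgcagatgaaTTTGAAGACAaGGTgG
Rpl10 (rn4 chrX:160336740-160336799, minus strand): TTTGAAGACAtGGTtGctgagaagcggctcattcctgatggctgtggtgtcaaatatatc

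Rpl37a, a zinc-binding protein of the large subunit, had the smallest p. Its brightest probe, at chr5:146450567-146450626 (rn4), read 16.59, 16.94, 16.52 and 17.00 in females 1 to 4 and 16.52, 16.23, 16.41 and 16.53 in males 1 to 4. Before the dye effect was taken out, female 3 lay level with males 1 and 4, and the other females above every male. With it taken out, female 3 (16.65) lay level with male 4 (16.65), and the other females still above every male. The ratio was 0.34 ± 0.07, with a limma adjusted p of 0.55, the same value as for each of the 3 genes that follow. Its 2 other probes gave 0.17 ± 0.12 and -0.10 ± 0.08, and the last of these, on chromosome 9, was the one with a ratio below 0. RefSeq (GRCr8) places the start of Rpl37a on chromosome 9, so the probe with the smallest p is annotated on another chromosome than the gene. The mean over the 3 probes was 0.14.

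Rpl23a, which lies at the exit of the peptide tunnel where signal recognition particle docks, read 14.83, 14.72, 14.72 and 14.65 in females and 14.46, 14.10, 14.59 and 14.54 in males. The sexes did not overlap, and the ratio was 0.31 ± 0.11. Ratios were above 0 on every array for 6 of the 79 genes, among them Rpl37a, Rpl10l, Rpl23a, Rps15a and Rpl3, beside 4.87% of all named genes. Rps15a and Rpl3 are named for this count and were chosen after their values were seen.

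Rpl35a, one of the genes mutated in human Diamond-Blackfan anaemia, followed. It read 15.60, 16.07, 15.56 and 15.72 in females and 15.51, 15.21, 15.69 and 15.23 in males. Before the dye effect was taken out, male 3 lay inside the female range. With it taken out, Rpl35a ran from 15.55 to 15.90 in females and from 15.33 to 15.52 in males, without overlap. Its ratio was 0.33 ± 0.10, and 0.10, 0.86, -0.14 and 0.49 on the arrays. The 2 arrays with the female in Cy5 were the high ones. Rpl31, also at the tunnel exit, gave a ratio of 0.22 ± 0.08, and its array ratios of -0.13, 0.76, -0.18 and 0.44 changed sign with the dye. The Rpl35a probes with the highest and lowest of the gene's 3 ratios share sequence. They overlap by 35 bases with 1 mismatch, capitals marking the identical bases:
Rpl35a first probe (rn4 chr12:6574200-6574259, minus strand): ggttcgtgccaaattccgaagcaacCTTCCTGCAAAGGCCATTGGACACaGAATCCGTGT
Rpl35a second probe (rn4 chr12:6574175-6574234, minus strand): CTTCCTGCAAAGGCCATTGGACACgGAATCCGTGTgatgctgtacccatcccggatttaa
The first gave a ratio of 0.33 ± 0.10 with a dye effect of 0.35 ± 0.10, and the second 0.22 ± 0.15 with a dye effect of 0.27 ± 0.15. The gap between the ratios was 0.11 and was not tested. Over genes with several probes the median gap was 0.06.

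The P stalk genes sat near the middle of the list. Rplp0 gave 0.13 ± 0.07, Rplp1 0.20 ± 0.10 and Rplp2 0.14 ± 0.10, with limma adjusted p-values from 0.56 to 0.61. All of them were above 0 on arrays 1, 2 and 4 and below 0 on array 3. Without array 2 Rplp2 was at 0.02.

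Rps6, the small-subunit protein that S6 kinases phosphorylate, gave 0.16 ± 0.10. Rpl11 and Rpl5 assemble with 5S ribosomal RNA and, outside the ribosome, bind the p53 regulator Mdm2. Rpl11 gave 0.16 ± 0.08. Rpl5 read 14.70, 13.92, 14.58 and 14.15 in females and 14.37, 14.62, 14.42 and 14.42 in males. Before the dye effect was taken out, female 1 lay above every male, female 3 above all but male 2, and females 2 and 4 below every male. With it taken out, Rpl5 read 14.52, 14.10, 14.39 and 14.33 in females and 14.55, 14.44, 14.60 and 14.23 in males. Female 2 was then the lowest sample, and the other females lay within the male range. Its ratio of -0.12 ± 0.10 was the lowest of the 79, with a limma adjusted p of 0.64, and was close to 0 (-0.008) without array 2, on which it read -0.70. The other genes below 0 were Rpl17, another tunnel-exit protein (-0.02 ± 0.12), Rpl7l1, a nucleolar paralog of Rpl7 (-0.02 ± 0.07), and Rps4x (-0.01 ± 0.08), none of them distinguishable from 0.

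Among the 5 genes whose probes map to chromosome X, 4 had ratios above 0. Rpl36a gave 0.31 ± 0.18, Rpl10 0.21 ± 0.14, Rpl39 0.20 ± 0.17 and Rpl21 0.13 ± 0.07. For Rpl36a and Rpl39 the ratio on array 2 (1.11 and 0.99) was far above those on the other arrays, which lay between -0.28 and 0.12. Without array 2 Rpl36a was at 0.05, Rpl10 at 0.04 and Rpl39 at -0.02. Rps4x, whose human counterpart has a second copy on the Y chromosome, read 13.30, 12.33, 13.10 and 12.53 in females and 12.66, 12.79, 12.78 and 13.08 in males. The Cy3 samples were the high ones in both sexes, and the sexes overlapped fully. Rps4y2, annotated on chromosome 4 and named here after its values were seen, gave 0.23 ± 0.15, and 0.04 without array 2.

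Of the other paralogs, Rpl22l1 gave 0.35 ± 0.22 at its brightest probe and 0.06 ± 0.10 at its second. Without 1 array the first ran from 0.065 to 0.638. Its parent Rpl22 gave 0.17 ± 0.09. Rpl36al gave 0.18 ± 0.12 beside 0.31 ± 0.18 for Rpl36a, and Rpl7l1 gave -0.02 ± 0.07 beside 0.02 ± 0.07 for Rpl7. The differences within these pairs were not tested. How much RNA of processed pseudogenes these probes also bind was not tested.

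Of the 45 genes with several probes, 41 had every probe on one side of 0. With 136 of all 143 probes above 0, that count does not measure agreement between the probes of a gene. The median gap between the highest and lowest probe of a gene was 0.06. The dye effect of those probes differed more, by a median of 0.35, and in 26 genes it took both signs. Rpl36a, one of the 4 genes with probes on both sides of 0, has overlapping probes whose estimated dye effects differ in sign. Its 4 probes gave ratios from -0.05 to 0.33. The pair shown overlaps by 57 bases with 3 mismatches, capitals marking the identical bases:
Rpl36a first probe (rn4 chrX:122042681-122043808, plus strand): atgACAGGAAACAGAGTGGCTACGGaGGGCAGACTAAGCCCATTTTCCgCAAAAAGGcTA
Rpl36a second probe (rn4 chrX:122042684-122043811, plus strand): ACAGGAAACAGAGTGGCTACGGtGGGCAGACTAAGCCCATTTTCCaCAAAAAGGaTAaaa
The first gave a ratio of 0.28 ± 0.19 and a dye effect of -0.13 ± 0.19, and the second 0.33 ± 0.20 and 0.40 ± 0.20. Neither dye effect was distinguishable from 0 (limma adjusted p of 0.68 and 0.25). No gene's probes differed by more than 1 on the log2 scale. The widest gap was in Rpl19, named after its values were seen, where the brightest probe in the fit gave 0.15 ± 0.10 and the other 1.09 ± 0.23, with 0.86, 2.23, -0.03 and 1.30 on the arrays.

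A dye effect at a limma adjusted p under 0.05 was found, unlike one of sex, for 7 of the 79 genes, beside 13.5% of all named genes. Cy5 read higher for Rpl6 (0.51), Rps9 (0.45) and Rpl41 (0.45), and Cy3 for Rps4x (-0.49), Rps13 (-0.47), Rpl37 (-0.45) and Rpl7l1 (-0.38). Across the 79 genes, ratios on arrays of the same dye orientation had Pearson correlations of 0.83 (arrays 1 and 3) and 0.67 (arrays 2 and 4), and those of opposite orientation lay between -0.72 and -0.49. Over all named genes the same correlations were 0.66 and 0.47, and -0.63 to -0.30 for opposite orientation. All are over genes of the same arrays, which are not independent, and each pair of arrays holds different animals.

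The start of the genes was read from RefSeq (GRCr8), where 62 of the 79 had a window of 250 bases before and 50 after the start. A C followed by at least 7 more C or T, on the sense strand and beginning within 10 bases of the start, was present in 36 of these 62 windows. It is found in 7.25% of all other promoters in the table. As 17 members have no window, these counts do not cover the whole list, and the difference from other promoters was not tested. The median log2 sex ratio was 0.17 for the 36 genes with such a run and 0.16 for the 26 without it. That difference was not tested either, and no relation to the sex ratio was taken from these runs. The 4 longest runs and those of 3 genes described above are shown as 30 bases around the start. Runs of Rps23 (21 bases) and Rpl27a (20 bases) go past the end of the 30 bases. That of Rpl5 is cut at the limit of 10 bases before the start. Capitals mark the part of the run within these bounds:
Rps23 (GRCr8 chr2:23814502-23814531, plus strand): tgggtccttcctgCCTCTCTTCTCTCTTTC
Rpl27a (GRCr8 chr1:172974558-172974587, plus strand): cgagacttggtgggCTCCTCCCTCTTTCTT
Rps24 (GRCr8 chr16:96502-96531, plus strand): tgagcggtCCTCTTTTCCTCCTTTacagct
Rpl22 (GRCr8 chr5:168117946-168117975, plus strand): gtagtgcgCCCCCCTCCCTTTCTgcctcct
Rpl37a (GRCr8 chr9:81748076-81748105, plus strand): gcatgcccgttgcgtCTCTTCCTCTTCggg
Rpl5 (GRCr8 chr14:1995211-1995240, minus strand): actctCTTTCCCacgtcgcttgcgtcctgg
Rps4x (GRCr8 chrX:71342907-71342936, minus strand): tccagcgcgcgcagCCTCCgaccctaattt
A run in these letters is a description of the window and no measure of translation.

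The other genes of translation had medians nearer 0. The 69 mitochondrial ribosomal protein genes, which serve the separate ribosome of the mitochondrion, had a median of 0.10 with 50 above 0. Their array medians were 0.18, 0.04, 0.05 and -0.06, above those of the cytosolic genes on arrays 1 and 3 and below them on arrays 2 and 4. The difference between these lists was not tested. The 1179 other genes with a mean signal at or above the 90th percentile had a median of 0.01, with 51.7% above 0.

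Of 18 elongation and termination genes 9 lay above 0, with a median of 0.01 and none at an unadjusted limma p under 0.05. The release factor Etf1 gave -0.13 ± 0.07 and the exchange factor Eef1b2 0.23 ± 0.14. Of 38 initiation genes 17 lay above 0, with 1 at an unadjusted limma p under 0.05 on each side, beside 5.05% above and 3.74% below over all named genes: Eif3h, a subunit of the initiation factor that binds the small subunit (0.27 ± 0.06), and the cap-binding protein Eif4e (-0.48 ± 0.15). Among 4 ribosomal components with other names, 3 lay above 0, including the small-subunit protein Rpsa (0.32 ± 0.10).

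Of 43 ribosome assembly genes 31 lay above 0, with a median of 0.09. At an unadjusted limma p under 0.05 there were 4 above and 2 below, beside 5.05% and 3.74% of all named genes. Rrp15, needed for large-subunit assembly, was below 0 on every array (-0.40 ± 0.09), and Nop58, a core protein of the particles that methylate ribosomal RNA, gave 0.22 ± 0.06. Of 23 genes of RNA polymerases I and III 13 lay above 0, among them the polymerase I selectivity factor subunit Taf1c (0.25 ± 0.06), while the polymerase I initiation factor Rrn3 gave -0.21 ± 0.07. Of 26 genes of the mTOR and S6 kinase axis 8 lay above 0, with a median of -0.06. Rps6kb2, an S6 kinase, gave 0.23 ± 0.07 and Pdcd4, an inhibitor of the helicase eIF4A, 0.24 ± 0.08. Array ratios changed sign with the dye for Nop58 (-0.18, 0.61, -0.16 and 0.61) and Eif3h (-0.25, 0.79, -0.31 and 0.86). The same held for Pdcd4 (1.18, -0.46, 0.96 and -0.70) and Etf1 (-0.22, 0.03, -0.45 and 0.12). No gene of these lists passed an adjusted p of 0.05. Several of these values moved with the processing. Rrn3 was at -0.50 without background correction and -0.80 with the scanner's log ratio. With the authors' value table Rrp15 was at -0.78, Etf1 at -0.27, Nop58 at 0.09, Taf1c at 0.16 and Pdcd4 at 0.06. With the mean of a gene's probes Eif3h was at 0.10, Eif4e at -0.26 and Rpsa at 0.17.

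**Figure D4:**
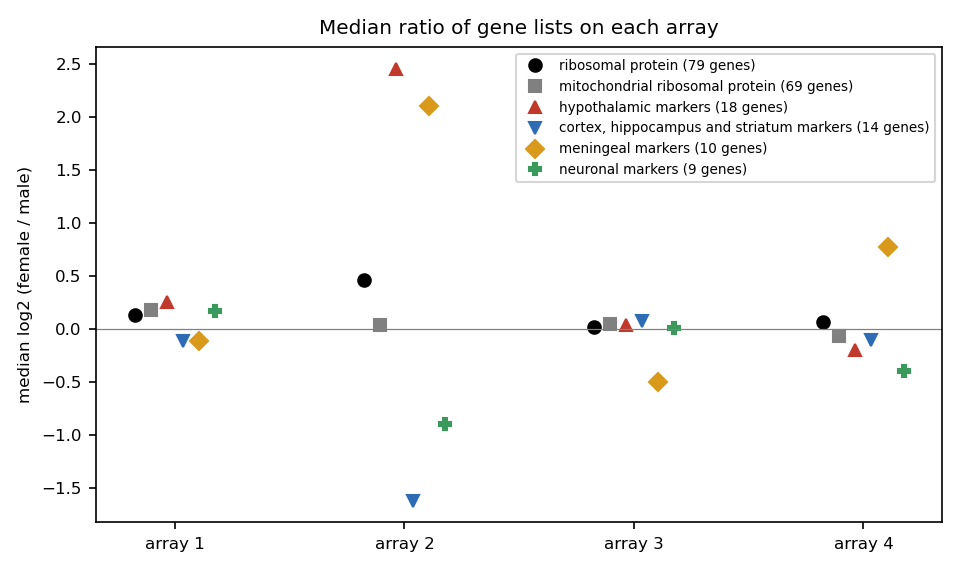
Median log2 female over male ratio (vertical axis) of 6 gene lists on each array, 1 symbol per list. On array 2 the hypothalamic (2.45) and meningeal (2.10) markers lie far above 0 and the markers of cortex, hippocampus and striatum (-1.62) far below, with the cytosolic ribosomal protein genes at 0.46.

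The median kept its sign under every processing alternative run, as the plot of settings shows. With all 4 arrays it lay between 0.14, from the authors' value table, and 0.17, with 72 to 76 genes above 0. Without 1 array it ran from 0.07 to 0.26. Without array 4, 50 of the 79 genes lay above 0 at an unadjusted limma p under 0.05, beside 17.1%, and 5 genes passed a limma adjusted p of 0.05, where 8% of all named genes did: Rpl36a (0.56 ± 0.07), Rpl10l (0.91 ± 0.13), Rps12 (0.51 ± 0.07), Rps27 (0.52 ± 0.08) and Rps27a (0.46 ± 0.07). That fit rests on 3 arrays and leaves 1 residual degree of freedom per gene. Array 2 is then the only one with the female in Cy5 and weighs as much as arrays 1 and 3 together. On arrays 1 to 3 Rps12 read -0.06, 1.14 and -0.17, and Rps27a -0.16, 1.12 and -0.24. Rpl36a read 0.04, 1.11 and -0.03 on them, and Rps27 0.10, 1.03 and -0.08. The calls of Rps12, Rps27a, Rpl36a and Rps27 thus rest on array 2. Rps27a fell to -0.01 without array 2. Rps12, Rps27 and Rps27a are named from this count, after their values were seen.

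**Figure D5:**
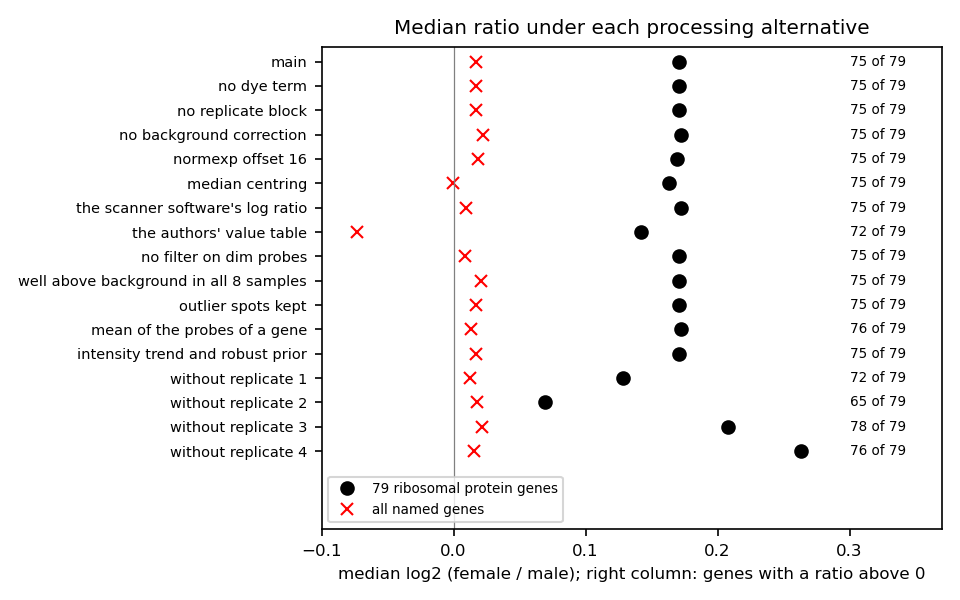
Median log2 female over male ratio (horizontal axis) of the 79 ribosomal protein genes (black points) and of all named genes (red crosses) under each processing alternative and with each array left out, with the number of the 79 above 0 at the right. The lowest black point, 0.07, is without the pair of replicate 2, and the highest, 0.26, without that of replicate 4.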

How the data were processed

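The authors labelled RNA for two-colour Agilent arrays and deposited scanner output of Agilent Feature Extraction 10.7.3.1, per the submitters' processing notes, holding an intensity for each channel of a spot and a log10 ratio, per the file headers. They also deposited a value table on a log2 scale, which equals the log2 of the background-subtracted signal less a constant per sample. Here intensities were background-corrected (normexp, offset 50) and loess-normalised within arrays (limma 3.58.1, R 4.3.3). Controls and flagged outliers were removed, and replicate spots were merged by their mean. Testing required more than 0.5 of a probe's spots to clear background in each sample of either sex, which 22004 of 30367 probes met. Of these, 9 lacked ratios on too many arrays to be fitted, and 21995 were tested. Levels are single channels after quantile scaling of average intensity. The limma model used the within-array ratio, with an intercept for sex and a term for dye, and Benjamini-Hochberg adjustment over all tested probes.

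Pairing comes from the shared array. With the dye effect removed, the 2 samples of an array deviated from their sex means with correlations of 0.62, 0.69, 0.46 and -0.11 over 12411 genes. Median net signals were 502 to 530 (Cy3) and 148 to 272 (Cy5), with no saturated spot. The number of arrays limits the precision.

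Genes were named by a rule: the 6 smallest p-values in each direction, chromosome X, the P stalk, paralogs ending in l, l1, x or y with their parents, Rps6, Rpl5, Rpl11, genes whose probes differ by over 1, and the 2 smallest p-values of each other translation list. Members and lists were chosen with earlier results of these data known. Positions are those of the array files (rn4), and exon or UTR annotation of that build was not used here. By accession 131 of the 143 probes matched RefSeq (GRCr8), 127 with the same symbol, and the files' names were kept. The fit was tested on simulated data. Alternatives changed the dye term, the pairing, background correction, normalisation, filters, probe summary and prior, or left out an array. Single values of some genes that the rule names are not reported here.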

Additional observations from a re-analysis of the deposited data

Results flagged for a closer look

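Of 72 groups of 4 values checked (levels by sex and array ratios of the named ribosomal protein genes, and the list medians), 5 held a value far from the other 3 by Dixon's test, which divides its gap to the nearest value by the whole range. Chance flags about 1 in 20 such groups. For the array ratio of Rpl10 this share was 0.884, with 0.76 on array 2 and -0.02 to 0.07 elsewhere. For Rpl36a it was 0.867 for the male level, where male 2 read 13.53 and the others 14.22 to 14.33, and 0.884 for the array ratio, with 1.11 on array 2. The array ratio of Rplp2 gave 0.889, with 0.54 on array 2 and -0.02 to 0.04 elsewhere. The female level of Rpl7 gave 0.876, with female 2 at 15.28 and the others between 15.62 and 15.67. All 5 lie on array 2, the array on which the regional markers stood apart. Their part in these values was not tested.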

How the results depend on the processing

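The median ratio stayed above 0 under every alternative, at 0.14 to 0.17 with all arrays and 0.069 to 0.263 with 1 array left out, against an SD of 0.20 between the 4 array medians. The number of genes above 0, a count added after seeing the data, ran from 65 to 78. Genes at an unadjusted limma p under 0.05, 5 as reported, numbered 2 without the dye term, 13 without the replicate block (the pairing on the array), 3 without background correction, 2 with median centring, 2 with the scanner's log ratio, 1 with the authors' value table and 3 with the mean of a gene's probes, 4 with an offset of 16, 7 without the filter and 6 with an intensity trend, where 2.89% (no dye term) to 10.2% (value table) of all named genes did. Leaving out replicates 1 to 4 in turn gave 1, 2, 1 and 51, beside 4.23%, 8.21%, 2.07% and 31.7% of all named genes. At an adjusted p under 0.05 there were 5 with replicate 4 left out and 0 under the other alternatives. Dye effects, 7 as reported, numbered 0 without background correction (9.28% of all named genes) and 0 with the scanner's log ratio (0%). With the authors' value table there were 0 (12.3%), without the filter 4 (10.4%) and with the mean of probes 2 (11.3%). Median centring gave 10 (23.0%). Leaving out replicates 1 to 4 in turn gave dye effects for 0, 6, 0 and 28 (0%, 16.6%, 0% and 31.9%). Without replicate 2, 12 of the 23 genes named by the rule moved towards 0 by over 1.5 times, and without replicate 4, 9 moved away from it. Some directions turned. Rpl7 was -0.011 with the value table and ran from -0.022 to 0.056 with 1 array left out. Rpl17 was 0.041 with the mean of probes and ran from -0.14 to 0.103. Over the left-out arrays Rpl39 ran from -0.023 to 0.414, Rpl7l1 from -0.058 to 0.020, Rps4x from -0.094 to 0.070 and Rps27a from -0.011 to 0.461. Rpl39 and Rps27a, 0.20 and 0.23 as reported, turned without replicate 2. The cause of these changes was not tested.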

Other observations

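Another 10 tested probes carry other names on the array but match RefSeq accessions whose current symbols are ribosomal protein genes or their copies, among them Rpl12, which is on the array only under a locus name. Some of these probes match the same gene or copies of member genes, so they are not independent readings. All 10 had a ratio above 0, beside 56.1% of all tested probes. The ratios ran from 0.03 to 0.22, with a median of 0.11 and none at an unadjusted limma p under 0.05. Their array medians were -0.05, 0.51, -0.17 and 0.22.

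The only ribosomal protein probes spotted 10 times, 1 each for Rps4x and Rpl15, show how far readings of 1 sample pair spread on 1 array. For Rps4x the SD of the log2 ratio over the 10 spots was 0.62, 0.50, 0.48 and 0.45 on the 4 arrays, and on array 1 the spots ran from -0.07 to 1.40. For Rpl15 the SDs were 0.34, 0.26, 0.30 and 0.27. The fitted ratio uses the mean of these spots.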
